A study of Mus musculus with 15 samples.

Results

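Interferon-stimulated genes are the genes that cells switch on when interferon reaches them. A set of 35 of them was followed in TA muscle (the tibialis anterior of the lower leg) and heart of dystrophic mice. The members were chosen by gene symbol, through the Ensembl identifiers of the deposited table, which lists 56980 genes, and all 35 had a row. The set holds sensors of foreign RNA and DNA and their adaptors (4 genes), transcription factors (4), the ISG15 modifier system (3), the IFIT (4) and OAS (5) families, GTPases (5), radical and nucleotide enzymes (2), membrane proteins (4) and other effectors (4).

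All 15 libraries came from DBA/2-mdx mice, which lack dystrophin, and no mouse with intact dystrophin was among them, so no level here is a comparison with healthy tissue. TA was taken at 5 months of age after 2 months of gavage 2 times per week with vehicle (4 mice, replicates 1 and 3 male, replicates 2 and 4 female) or with the senolytic pair dasatinib and quercetin, D+Q (4 mice, all labelled male). Heart was taken at 16 months of age after 4 months of the same schedule with vehicle (4 mice, replicates 1 and 4 male, replicates 2 and 3 female) or D+Q (3 mice, replicates 1 and 2 female, replicate 3 labelled male). The study asked whether clearing senescent cells changes dystrophic skeletal muscle and heart. Tissue, age and length of treatment differed together and cannot be told apart.

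Type I interferons bind the receptor IFNAR1/IFNAR2, whose kinases JAK1 and TYK2 switch on a complex that holds STAT2 and IRF9. That complex binds the interferon-stimulated response element (ISRE) in promoters, whereas interferon gamma acts mainly through another element, the gamma-activated site (GAS). In skeletal muscle the genes are known for their rise in viral infection and in inflammatory muscle disease such as dermatomyositis.

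RefSeq promoter windows of mouse build GRCm38.p6, from 250 bases before to 50 bases after the annotated start, were available for 26 of the 35 members. The ISRE core was searched as GAAA, any 2 bases and GAAA again, on either strand, with overlapping matches allowed. It was present in 14 of the 26 members (53.8%), against 3.99% of the 27025 genes with a window. The GAS core, searched as TTCNNNGAA, which reads alike on both strands, was present in 7 of the 26 (26.9%), against 9.55% of all genes. A match describes the letters only and does not show that a factor bound there.

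The stretches below lie before the start of 5 members that the results turn on, picked with their values known: Ifit1 and Isg15 were among the members furthest above the other mice in 1 TA library, and Ifit3, Rsad2 and Bst2 differed between the tissues. Capitals mark ISRE core matches, and each stretch is read 5′ to 3′ on the strand of the gene.
Ifit1 (chr19:34640775-34640888, plus strand): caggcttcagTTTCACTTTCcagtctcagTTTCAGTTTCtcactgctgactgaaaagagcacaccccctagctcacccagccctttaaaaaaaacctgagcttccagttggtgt
Ifit3 (chr19:34583363-34583466, plus strand): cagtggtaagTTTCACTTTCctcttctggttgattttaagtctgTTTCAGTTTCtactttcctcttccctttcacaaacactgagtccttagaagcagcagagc
Rsad2 (chr12:26456453-26456582, minus strand): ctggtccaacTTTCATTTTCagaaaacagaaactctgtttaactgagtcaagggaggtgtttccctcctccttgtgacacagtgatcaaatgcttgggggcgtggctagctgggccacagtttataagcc
Isg15 (chr4:156200819-156200906, minus strand): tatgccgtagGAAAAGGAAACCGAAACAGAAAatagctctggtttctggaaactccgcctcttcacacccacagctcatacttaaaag
Bst2 (chr8:71537537-71537612, minus strand): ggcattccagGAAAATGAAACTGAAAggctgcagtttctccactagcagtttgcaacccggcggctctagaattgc
The match nearest to the start began 85 bases before it in Ifit1, 122 in Ifit3, 120 in Rsad2, 66 in Isg15 and 124 in Bst2. The 3 matches of Isg15 and the 2 of Bst2 overlap one another. The ISRE core was also found before the start of Stat2, Ifit3b, Oas1a, Oas3, Gbp2, Gbp3 and Gbp7, and after the start in Ifih1 and Ifitm3.

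Several members sit close to each other in the genome, given here on GRCm39, the build of the authors' quantification. Ifit2 (34527932 to 34554524), Ifit3 (34560899 to 34566443), Ifit3b (34585328 to 34590801) and Ifit1 (34618271 to 34632174) lie in this order on chromosome 19. Rsad2 (26492745 to 26506451) and Cmpk2 (26519203 to 26529836) are neighbours on chromosome 12. Gbp7, Gbp3 and Gbp2 lie between 142236044 and 142343779 on chromosome 3. Members that resemble another gene can trade reads with it: 58.1% of the 31-base words in Ifit3b transcripts and 39.4% of those in Ifit3 transcripts also occur in another gene, nearly all of them in the other of this pair, so the split between Ifit3 and Ifit3b is uncertain. The shares were 26.1% for Rtp4 and 22.8% for Oas1a, and 13.5% or less for every other member.

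Values are TPM, transcript abundance scaled for length and for the library total, and since this scale keeps no depth, the read support of single values is not known. Mice of a group correlated at 0.949 to 0.982 over genes, no libraries were identical, and markers of fast skeletal muscle and of ventricle followed the tissue labels in all 15. Heart D+Q replicate 3 is labelled male, but its Xist level (47.2 TPM) and its Y-linked sum (0.0438 TPM) are those of a female. Between 21830 and 25378 genes were above 0 per library, with the fewest in TA D+Q replicate 3. In such bulk tissue, fewer cells of a type and less RNA per cell cannot be told apart.

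The members were transcribed at low to moderate levels in both tissues. In vehicle TA, 9 of the 35 members had a mean under 1 TPM, 22 lay between 1 and 10 TPM and 4 were at 10 TPM or above. In vehicle heart these counts were 5, 25 and 5. Ifitm3, a membrane protein that blocks virus entry, was the highest in each of the 4 groups, at 135 ± 26.6 TPM (SD, n = 4) in vehicle TA and 138 ± 13.4 TPM (SD, n = 4) in vehicle heart. Ifi27, a small hydrophobic protein of intracellular membranes, was next, and Oas3, one of the enzymes that make 2-5A in answer to double-stranded RNA, was the lowest, at 0.192 ± 0.0549 TPM (SD, n = 4) and 0.162 ± 0.0407 TPM (SD, n = 4).

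Transcripts of the interferons themselves were almost absent. Of 15 interferon genes looked up, among them Ifnb1 and 9 of the interferon alpha genes, 14 were listed at 0 in all 15 mice, and Ifng was the exception, with at most 0.0489 TPM. The receptor chains were present in every mouse: Ifnar1 ranged from 9.46 to 19.3 TPM and Ifnar2 from 11.6 to 28.0 TPM. Of the plasmacytoid dendritic cell, a major producer of type I interferon, the markers Siglech (at most 0.795 TPM) and Ccr9 (at most 0.0626 TPM) were near 0 throughout. The 6 markers listed for it nevertheless summed to 67.7 to 108.1 TPM in TA and 77.6 to 95.4 TPM in heart. A single marker of the list reached up to 106 TPM, so 1 gene can make up most of such a sum. The summed level of 8 T and NK cell markers was 0.740 to 5.92 TPM, so their transcripts were scarce in both tissues.

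**Figure D1:**
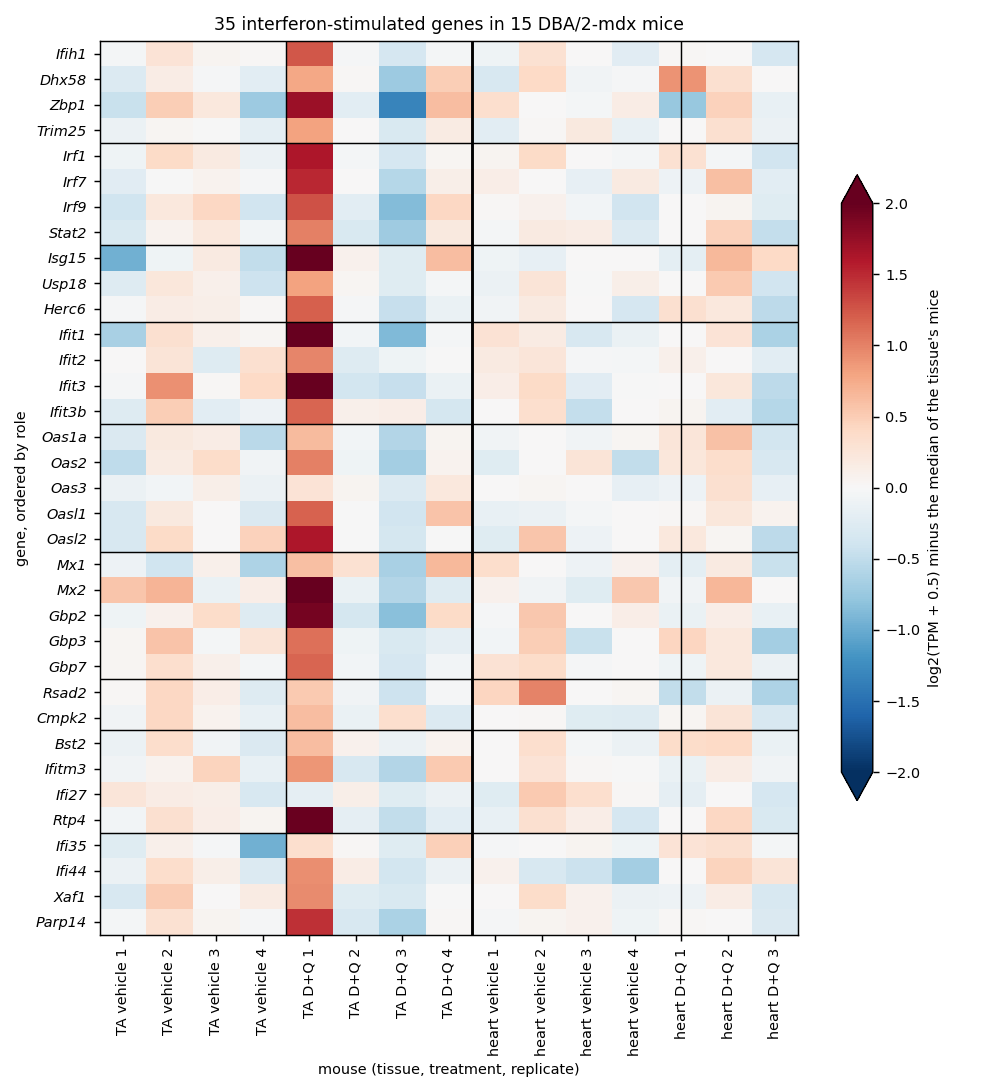
Heat map of log2(TPM + 0.5) of the 35 members (rows, ordered by role and separated by lines) in the 15 mice (columns), each minus the median of that gene over the mice of the same tissue, with colours ending at 2 and -2. TA D+Q replicate 1 is the highest of the 8 TA mice in 32 of 35 rows, while the heart columns are closer to their median.

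In TA, no member passed the test between D+Q and vehicle, and 1 mouse held most of the highest values. D+Q replicate 1 had the highest TPM of the 8 TA mice for 32 of the 35 members, against 15.8% of the 16298 genes tested. Its median member lay 1.10 above the median of the TA mice on the log2 scale, while the median over all tested genes lay at -0.01. For the 32 members, its TPM was 1.11 to 6.20 times that of the next mouse, with a median of 1.83, and for 24 of them the ratio was above 1.5. D+Q replicate 3 stood at the other end: it was the lowest of the 8 mice for 26 members, against 27.8% of the genes tested. TPM of D+Q and vehicle mice overlapped for 35 of 35 members, and over the genes tested all D+Q mice lay above all vehicle mice for 0.264% and below them for 1.25%.

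The IFIT proteins, which bind foreign RNA and block its translation, were the furthest above the other mice in D+Q replicate 1, with a median of 1.61 over the family on the log2 scale. Given here and in what follows in the order of the replicate numbers, Ifit1 measured 0.634, 1.72, 1.41 and 1.32 TPM among vehicle TA and 10.7, 1.22, 0.469 and 1.24 TPM among D+Q TA. Ifit3 measured 1.52, 3.35, 1.58 and 2.19 TPM among vehicle TA and 8.03, 1.09, 0.984 and 1.38 TPM among D+Q TA. In both genes D+Q replicate 1 stood apart and the other D+Q mice lay within or below the range of the vehicle mice. Ifit2 measured 2.14, 2.62, 1.70 and 2.78 TPM among vehicle TA and 4.66, 1.69, 1.96 and 2.10 TPM among D+Q TA, and Ifit3b 0.461, 1.11, 0.491 and 0.566 TPM and 2.07, 0.733, 0.755 and 0.394 TPM, in the same order of groups. The log2 differences between the groups were 0.05 (standard error 0.42) for Ifit1, -0.03 (0.27) for Ifit2, -0.33 (0.42) for Ifit3 and 0.18 (0.32) for Ifit3b.

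Isg15 was the single member with an unadjusted p under 0.05 in TA. It encodes a ubiquitin-like protein that is attached to other proteins. It measured 0.650, 1.62, 2.04 and 1.10 TPM among vehicle TA and 11.2, 1.88, 1.40 and 2.94 TPM among D+Q TA, so that D+Q replicate 1 was 3.80 times the next mouse. D+Q replicate 4 was also above every vehicle mouse, and replicates 2 and 3 lay within the vehicle range. The log2 difference was 0.67 (standard error 0.29, unadjusted p = 0.0415, limma adjusted p = 0.999), and it was positive under all 18 alternatives, from 0.49 to 1.10, with limma adjusted p from 0.709 upwards. Of its partners, Usp18, which removes ISG15, measured 0.884, 1.44, 1.29 and 0.749 TPM among vehicle TA and 2.40, 1.21, 0.911 and 1.12 TPM among D+Q TA. Herc6, the mouse ISG15 ligase, measured 2.08, 2.40, 2.34 and 2.18 TPM and 5.51, 2.08, 1.41 and 1.91 TPM, in the same order of groups. D+Q replicate 1 was again the highest mouse for both.

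The transcription factors were also highest in that mouse. Irf7, which drives interferon alpha genes, measured 1.77, 2.17, 2.30 and 2.13 TPM among vehicle TA and 7.12, 2.18, 1.30 and 2.41 TPM among D+Q TA. Irf1, a target and mediator of interferon gamma, measured 11.0, 15.5, 13.4 and 10.9 TPM and 37.1, 11.5, 9.29 and 12.1 TPM, in the same order of groups. In D+Q replicate 1, Irf7 was 2.95 times and Irf1 2.39 times the next mouse. Irf9 and Stat2, which belong to the ISRE-binding complex, reached 15.6 and 14.7 TPM in that mouse and were at 3.17 to 8.44 TPM and 4.11 to 8.23 TPM in the other 7 mice.

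The sensors were also highest in D+Q replicate 1. Ifih1, the sensor of long double-stranded RNA also called MDA5, measured 2.91, 3.71, 3.14 and 3.07 TPM among vehicle TA and 7.81, 2.92, 2.27 and 2.91 TPM among D+Q TA. Zbp1, which senses nucleic acids in the Z conformation, measured 0.548, 1.51, 1.15 and 0.360 TPM and 4.17, 0.723, 0.0715 and 1.69 TPM, in the same order of groups, the widest relative range among the sensors. Dhx58, which tunes RNA sensing, and Trim25, a ubiquitin ligase of the RIG-I pathway, reached 1.98 and 16.0 TPM in D+Q replicate 1, with 1.54 and 10.1 TPM in the next mouse.

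Among the GTPases, Mx2 and Gbp2 showed the pattern most sharply. Mx2, of the MX family of virus-restricting GTPases, measured 1.18, 1.33, 0.550 and 0.751 TPM among vehicle TA and 5.53, 0.543, 0.259 and 0.453 TPM among D+Q TA. Gbp2, a guanylate-binding protein that attacks the vacuoles of intracellular microbes, measured 7.03, 8.03, 9.84 and 6.22 TPM and 29.7, 5.77, 4.01 and 9.98 TPM, in the same order of groups. Gbp7 reached 10.5 TPM and Gbp3 3.28 TPM in D+Q replicate 1, where the next mouse had 5.64 and 2.13 TPM. Mx1 differed in that D+Q replicate 4 was the highest, at 0.856 TPM, and it passed the filter on low values in TA only through 3 D+Q mice.

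The OAS members, enzymes whose product activates RNase L and relatives of them, were highest in D+Q replicate 1 in 5 of 5. Oasl2 measured 3.16, 5.50, 4.10 and 5.82 TPM among vehicle TA and 13.6, 4.09, 3.09 and 4.08 TPM among D+Q TA. Oas1a, Oas2, Oas3 and Oasl1 reached 1.72, 3.25, 0.360 and 1.67 TPM in that mouse, with 1.14, 1.89, 0.324 and 0.924 TPM in the next. Rtp4, a chaperone of membrane receptors that is induced by interferon, measured 4.45, 5.88, 5.15 and 4.81 TPM among vehicle TA and 19.7, 4.04, 3.15 and 3.93 TPM among D+Q TA. Parp14, an ADP-ribosyltransferase, measured 6.28, 8.06, 6.72 and 6.34 TPM and 18.6, 5.06, 3.98 and 6.58 TPM, in the same order of groups. For Rtp4 and Parp14, D+Q replicate 1 was 3.36 and 2.31 times the next mouse.

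Some members hardly took part. Ifi27 was highest in a vehicle mouse, at 30.6, 28.7, 28.0 and 20.6 TPM with vehicle and 22.6, 28.2, 21.6 and 23.9 TPM with D+Q. Ifi35, which binds signalling proteins of the interferon response, was highest in D+Q replicate 4, at 16.1 TPM against 14.6 TPM in D+Q replicate 1. Rsad2, which makes a chain-terminating nucleotide (viperin), measured 1.03, 1.50, 1.14 and 0.750 TPM among vehicle TA and 1.66, 0.936, 0.625 and 0.969 TPM among D+Q TA, so its highest mouse was 1.11 times the next. Its neighbour Cmpk2, a mitochondrial nucleotide kinase, had 2.24 TPM in D+Q replicate 1 and 1.89 TPM in the next mouse. The medians over a role in D+Q replicate 1 were lowest, at 0.57 in log2 from the TA median, for these enzymes.

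**Figure D2:**
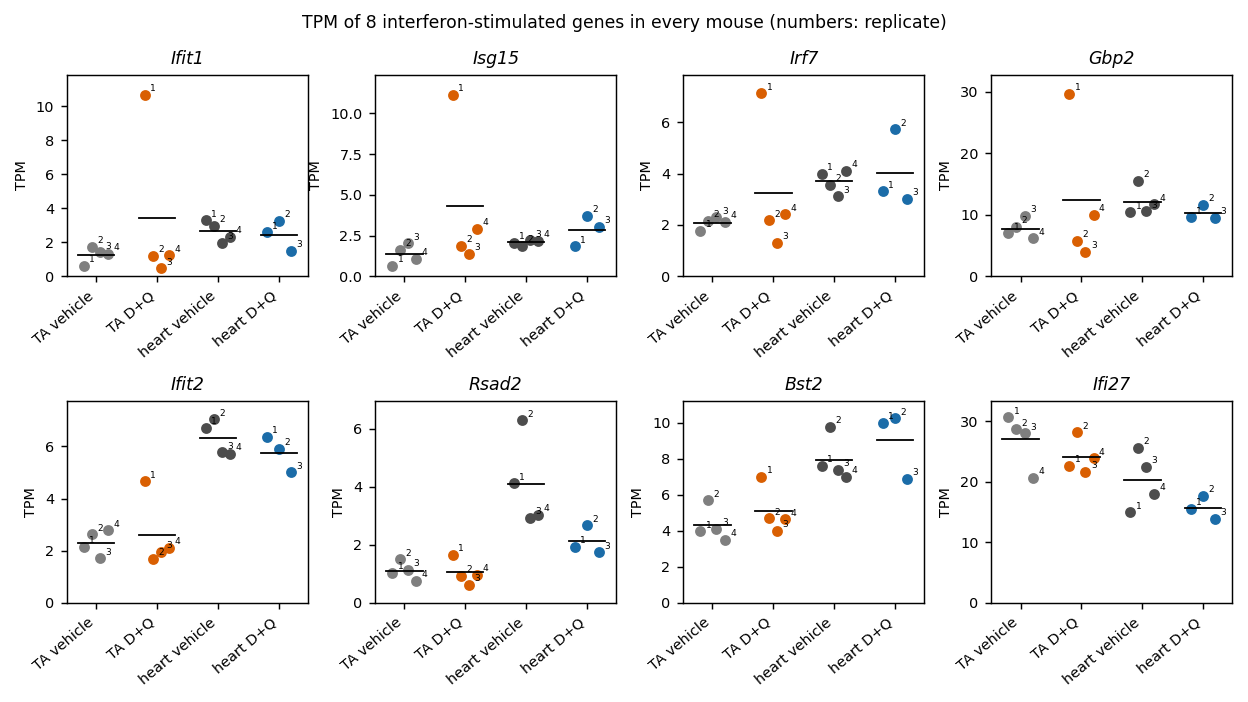
TPM (vertical axis, from 0) of 8 members in every mouse, with a column for each of the 4 groups, the replicate number beside each point and the group mean as a line. Ifit1, Isg15, Irf7 and Gbp2 were far higher in TA D+Q replicate 1 than in the other TA mice, Ifit2, Rsad2 and Bst2 were higher in heart than in TA among vehicle mice, and Ifi27 followed neither pattern.

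Tested over all 16298 genes, 0 of the 34 members that passed the filter were called in TA (limma on log2(TPM + 0.5) with 1 surrogate variable, adjusted p under 0.05 and an absolute log2 difference above 0.5), and 0% of the genes tested were called. At the same limits the study called more genes in both tissues, with a model of read counts (DESeq2). Calls of 0 in the fits of TPM therefore do not show that no gene changed. At an unadjusted p under 0.05, 1 member was higher and 0 were lower, against 0.638% and 2.36% of the genes tested. Of the 34 members, 12 had a positive and 22 a negative log2 difference, with a median of -0.05, while the median over all genes tested was -0.07. Which sign prevailed depended on single mice and on the covariate. Without D+Q replicate 1 the negative sign still prevailed, with 6 members positive and 26 negative (median -0.20). In that limma fit 1 member was higher and 4 were lower at an unadjusted p under 0.05, against 0.97% and 3.29% of the genes tested. Without D+Q replicate 3, 31 were positive and 3 negative with a median of 0.20. Without vehicle replicate 2, 20 were positive and 13 negative (median 0.04), and without D+Q replicate 4 they split 16 to 16. With no covariate 30 were positive and 4 negative (median 0.15), with labelled sex 31 and 3 (median 0.22). The surrogate variable was itself highest in D+Q replicate 1 (0.70) and lowest in D+Q replicate 3 (-0.42). In all 19 fits, 0 members were called.

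**Figure D3:**
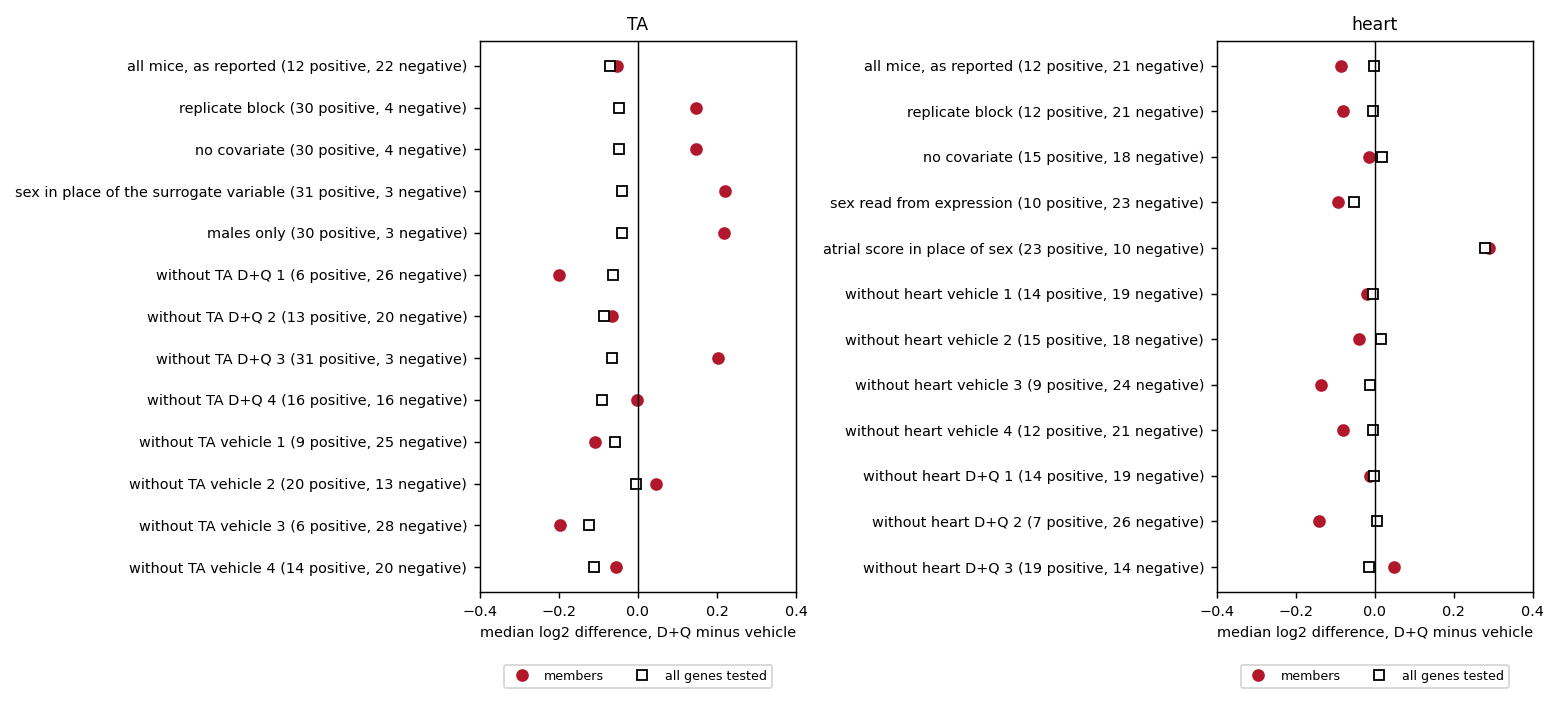
Median log2 difference between D+Q and vehicle mice over the members (filled circles) and over all genes tested (open squares) in TA (left) and heart (right), for the fit with all mice, other covariates and each mouse left out, with the numbers of members of either sign beside each setting. In TA the members' median runs from -0.20 without D+Q replicate 1 to 0.22 with labelled sex, while that of all genes tested stays below 0.

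Other genes were read in the same TA mice to see what else stood out there. Of all genes tested, 15.8% were highest in D+Q replicate 1. Of 65 further interferon-stimulated genes that passed the filter, 42 were highest in that mouse, and the median of the 65 lay 0.67 above the TA median. A list of 8 injury-response genes, which earlier results of these data had shown to vary between TA mice, was highest in D+Q replicate 1 for 8 of 8. The list was drawn from these same mice, so this count is not independent of that choice. The study names all 8 among the genes higher with D+Q in TA. These genes were also high in D+Q replicate 4 and vehicle replicate 3: their median deviations were 2.23 in D+Q replicate 1, 1.70 in D+Q replicate 4 and 1.51 in vehicle replicate 3. The members' median deviations in the latter mice were 0.02 and 0.10, with 18 and 27 of 35 members above the TA median, and in D+Q replicate 4 single members were higher, such as Isg15 (0.62) and Zbp1 (0.62). Ccl2, a chemokine that draws in monocytes, was at 143 TPM in D+Q replicate 1, 53.7 TPM in D+Q replicate 4 and 53.8 TPM in vehicle replicate 3, where Ifit1 was at 10.7, 1.24 and 1.41 TPM. The summed level of 8 macrophage markers was 683, 738, 404 and 615 TPM with D+Q and 504, 565, 592 and 334 TPM with vehicle, in the order of the replicates. That of 6 neutrophil markers was 29.7 TPM in D+Q replicate 1, 27.4 TPM in D+Q replicate 4, 25.9 TPM in vehicle replicate 3 and 24.7 TPM in vehicle replicate 2, and at most 7.52 TPM in the other mice. The part of injury or of infiltrating cells in the members' levels was not tested.

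**Figure D4:**
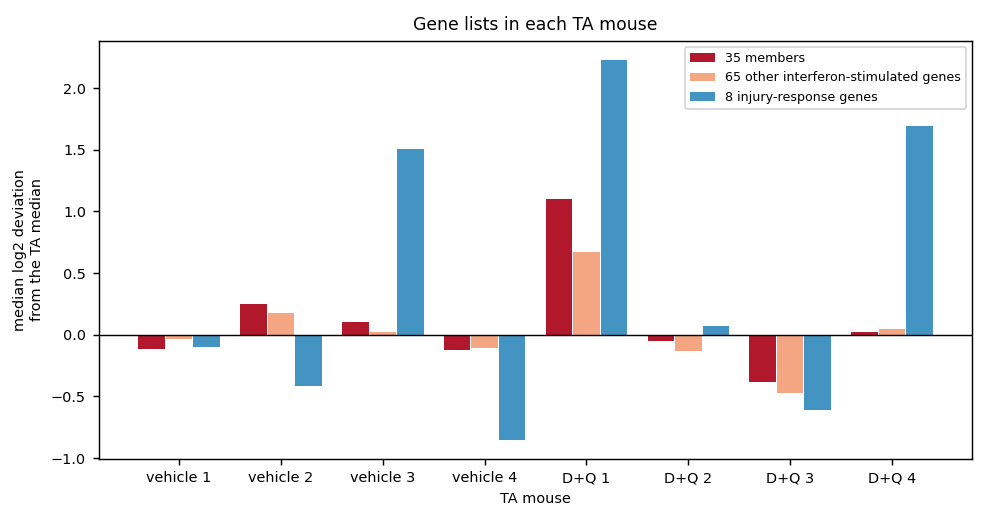
Median log2 deviation from the TA median (vertical axis) in each of the 8 TA mice for the 35 members, 65 other interferon-stimulated genes and 8 injury-response genes. All 3 lists are high in D+Q replicate 1 (1.10, 0.67 and 2.23), and in D+Q replicate 4 and vehicle replicate 3 the injury-response list lies at 1.70 and 1.51 and the members at 0.02 and 0.10.

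The rest of the pathway gave no call in TA either. Of 14 tested receptor, kinase and transcription factor genes, 17 nucleic acid sensors and adaptors, 10 negative regulators and 65 other interferon-stimulated genes, 0 were called by limma. At an unadjusted p under 0.05, 0 of these were higher and 3 were lower, all of them other interferon-stimulated genes. Among these Ddx60, an RNA helicase, had a log2 difference of -0.62 (standard error 0.23, unadjusted p = 0.0222, limma adjusted p = 0.999).

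In heart, the members lay closer together among vehicle than among D+Q mice, and again none passed the test. The mean log2 level of the members had an SD of 0.13 in vehicle and 0.26 in D+Q hearts, against 0.20 in vehicle and 0.69 in D+Q TA. Heart D+Q replicate 3 was the lowest of the 7 for 23 of 35 members, against 24.4% of the genes tested, while D+Q replicate 2 was the highest for 16 (19.1% of the genes tested) and vehicle replicate 2 for 14 (30.0%). Of the 33 members that passed the filter, 0 were called by limma with labelled sex in the model, where 51 of 16132 genes (0.316%) were called. The members split into 12 positive and 21 negative log2 differences with a median of -0.08. The median over all genes tested was -0.00 on the same scale.

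In these hearts 1 member was higher and 2 were lower with D+Q at an unadjusted p under 0.05, against 9.65% and 7.99% of the genes tested, so the members' count was below the background. Rsad2 measured 4.12, 6.29, 2.92 and 3.02 TPM among vehicle hearts and 1.94, 2.67 and 1.73 TPM among D+Q hearts, and every D+Q heart lay below every vehicle heart. Its log2 difference was -0.82 (standard error 0.25, unadjusted p = 0.0126, limma adjusted p = 0.165), and it was negative under all 17 alternatives, with limma adjusted p from 0.0707 to 0.842. The libraries also differed in other respects: the summed level of 8 atrial muscle genes was 890 to 4339 TPM with vehicle and 400 to 449 TPM with D+Q, and that of 5 red cell genes was 346 to 1231 TPM and 26.8 to 122 TPM. Vehicle replicate 2 held the highest atrial sum, the highest red cell sum and the highest Rsad2. Their part in the difference was not tested.

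Ifi27 measured 14.9, 25.6, 22.4 and 18.0 TPM among vehicle hearts and 15.5, 17.7 and 13.8 TPM among D+Q hearts. These groups overlapped, and the log2 difference was -0.41 (standard error 0.11, unadjusted p = 0.00655, limma adjusted p = 0.132). Its sign turned with an atrial score in place of sex, to 0.86. Ifi44, a cytoplasmic protein whose expression rises with interferon, measured 1.50, 1.02, 0.913 and 0.678 TPM among vehicle hearts and 1.40, 2.08 and 1.77 TPM among D+Q hearts. The groups overlapped here as well, with a log2 difference of 0.58 (standard error 0.22, unadjusted p = 0.0313, limma adjusted p = 0.234), which turned to -0.28 with the atrial score. Oasl1, which holds back translation of Irf7, was the 1 member with every D+Q heart above every vehicle heart, at 0.853, 1.05 and 0.900 TPM against 0.701, 0.730, 0.789 and 0.827 TPM. Such a split without overlap was seen in 9.63% (above) and 5.57% (below) of the genes tested, so 1 member of 35 in either direction was not above that share.

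The log2 differences of the other 30 tested members in heart lay between -0.24 (Gbp2) and 0.36 (Isg15), and none of them had an unadjusted p under 0.05. Irf7 measured 3.99, 3.57, 3.12 and 4.10 TPM among vehicle hearts and 3.30, 5.71 and 3.01 TPM among D+Q hearts, and Isg15 at 2.05, 1.89, 2.21 and 2.20 TPM and 1.84, 3.72 and 3.06 TPM, where replicates 2 and 3 with D+Q exceeded every vehicle heart. The IFIT genes had log2 differences of -0.14 to -0.23 with standard errors of 0.11 to 0.24. With the atrial score in place of sex, 23 members were positive and 10 negative with a median of 0.29, but the median over all genes tested moved to 0.28 as well, and the score and treatment were correlated at -0.944 over the 7 hearts. Without vehicle replicate 3, 9 of 33 members were lower at an unadjusted p under 0.05, against 9.99% of the genes tested, and 0 were called, while the number of genes called rose to 136.

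Outside the members, 1 of 67 other interferon-stimulated genes was called in heart. Gbp10, another guanylate-binding protein, was higher with D+Q by 1.25 on the log2 scale (standard error 0.16, limma adjusted p = 0.0374). This call was lost under several alternatives. With no filter on low values, a replicate block or the atrial score in place of sex, 0 genes were called higher. The same held without vehicle replicate 2, vehicle replicate 4 or D+Q replicate 2. The part of the atrial and red cell differences between the groups was not tested. Gbp6, a close relative of Gbp10, had a difference of 0.84 (0.14, limma adjusted p = 0.0812), and the split of reads between such similar genes is uncertain. Ube2l6, the enzyme that hands ISG15 to its ligases, had a difference of -1.50 (0.36, limma adjusted p = 0.117), Isg20, an exonuclease, of -0.77 (0.25, limma adjusted p = 0.185), and Irf5 of -0.72 (0.24, limma adjusted p = 0.196). Of 15 receptor, kinase and transcription factor genes, 17 sensors and adaptors and 9 negative regulators tested, 0 were called. At an unadjusted p under 0.05, 1 of each list was higher, and 3, 3 and 2 were lower in that order, against 9.65% and 7.99% of all genes tested.

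Compared between tissues in vehicle mice, the members leaned towards heart. Of 34 tested, 31 had lower and 3 higher log2 levels in TA, with a median difference of -0.38, while the median over all genes tested was 0.16 in the other direction. In the fit of all 15 mice, 6 members were called lower in TA (14.2% of all genes tested were) and 0 were called higher (22.5%), out of 36.7% called in all. The share of members called lower was thus not far above that of all genes. Of 69 other interferon-stimulated genes tested, 16 were called lower and 4 higher in TA. Receptor, kinase and transcription factor genes gave 4 and 4 of 15, sensors and adaptors 3 and 1 of 18, and negative regulators 1 and 3 of 10. For 12 of 35 members every vehicle heart lay above every vehicle TA, against 15% of the genes tested, and for 0 of 35 every vehicle TA lay above every heart, against 25.9%. Rescaling by median-of-ratios factors moved the median over all genes to -0.00 and that of the members to -0.52, and 10 members were then called lower, where 18.5% of the genes tested were called lower and 16.4% higher.

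Rsad2 showed the greatest difference. It was at 4.12, 6.29, 2.92 and 3.02 TPM in vehicle hearts and 1.03, 1.50, 1.14 and 0.750 TPM in vehicle TA, with no overlap, a log2 difference of -1.48 (standard error 0.25, limma adjusted p = 0.00022). The IFIT cluster came next. Ifit2 was at 6.72, 7.05, 5.77 and 5.72 TPM in heart and 2.14, 2.62, 1.70 and 2.78 TPM in TA, a difference of -1.29 (0.22, limma adjusted p = 0.000274). Ifit3 was at 5.93, 7.22, 4.54 and 5.36 TPM and 1.52, 3.35, 1.58 and 2.19 TPM, a difference of -1.27 (0.43, limma adjusted p = 0.0286). Each vehicle heart was above each vehicle TA for both genes.

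Ifit3b was at 1.65, 2.21, 1.05 and 1.67 TPM in vehicle hearts and 0.461, 1.11, 0.491 and 0.566 TPM in vehicle TA, where 1 TA mouse overlapped with heart (log2 difference -0.89, standard error 0.29, limma adjusted p = 0.0213). Ifit1 was at 3.31, 2.97, 1.98 and 2.32 TPM and 0.634, 1.72, 1.41 and 1.32 TPM. Its groups did not overlap, but it was not called (-0.85, standard error 0.55, limma adjusted p = 0.235) in a fit whose estimate of spread is shared by all 15 mice, TA D+Q replicate 1 included. Whether that mouse bore on the missing call was not tested. Bst2, or tetherin, which holds budding virus on the cell surface, was at 7.61, 9.77, 7.38 and 7.01 TPM in heart and 3.97, 5.68, 4.10 and 3.48 TPM in TA (-0.82, 0.18, limma adjusted p = 0.0016). Xaf1, an interferon-induced antagonist of the apoptosis inhibitor XIAP, was at 15.9, 20.6, 16.9 and 14.7 TPM and 7.63, 14.0, 9.78 and 10.9 TPM (-0.68, 0.22, limma adjusted p = 0.0236). Bst2 and Xaf1 did not overlap between the tissues. Markers of other cells also differed between the tissues. Of 8 macrophage markers, 4 were called higher in TA, with a summed level of 334 to 592 TPM in vehicle TA and 205 to 326 TPM in vehicle heart. Of 6 endothelial markers, 2 were called lower in TA, with sums of 158 to 220.5 TPM and 216 to 240.2 TPM. Of 3 tested T and NK cell markers, 1 was called lower in TA, with sums over the 8 listed of 0.933 to 2.84 TPM and 2.23 to 5.92 TPM, and red cell markers were called lower in 5 of 5, at 14.9 to 52.4 TPM and 346 to 1231 TPM. Their part in the members' difference was not tested.

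Rsad2, Ifit2 and Bst2 were called under all 17 alternatives, including each of the 8 fits that left out a vehicle mouse. The other 3 depended on single mice. Xaf1 was called in 4, Ifit3b in 3 and Ifit3 in 2 of these 8 fits. Without vehicle TA replicate 1 or 4, or vehicle heart replicate 1 or 2, 3 members were called lower, against 12.5% to 14.4% of the genes tested. Without vehicle heart replicate 3, 8 members were called lower, against 13.6% of the genes tested. Ifi27 ran the other way, at a log2 difference of 0.42 (standard error 0.16, limma adjusted p = 0.0481), under the minimum size for a call. It was called higher in TA without vehicle TA replicate 4 or vehicle heart replicate 2.

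**Figure D5:**
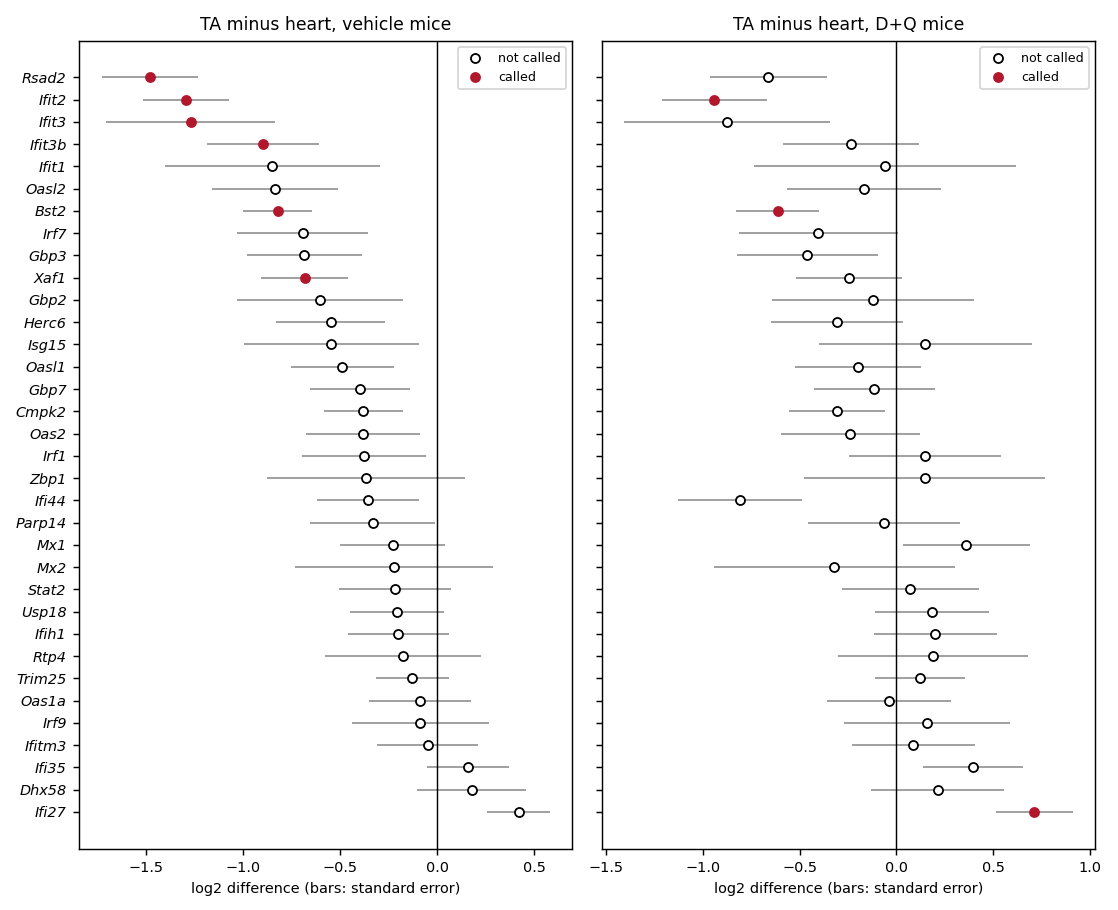
Log2 difference, TA minus heart, of the 34 tested members (points, with standard errors as bars) in vehicle mice (left) and D+Q mice (right), in the order of the vehicle values, with called members filled. In vehicle mice 31 of 34 points lie below 0 and 6 are called, and in D+Q mice 20 lie below 0 and 2 are called there, with Ifi27 called above 0.

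In D+Q mice the lean towards heart was smaller. By Xist and Y-linked levels, every D+Q TA mouse was male and every D+Q heart female. Tissue and sex read from expression therefore cannot be told apart within the D+Q mice. The median difference was -0.09, with 20 negative and 14 positive members. Ifit2 (-0.94, standard error 0.27, limma adjusted p = 0.0135) and Bst2 (-0.61, 0.21, limma adjusted p = 0.0364) were called lower in TA, and Ifi27 (0.71, 0.20, limma adjusted p = 0.0109) was called higher, where 34.7% of the genes tested were called, 21.4% higher and 13.3% lower. Ifit2 was at 4.66, 1.69, 1.96 and 2.10 TPM in TA and 6.37, 5.90 and 5.01 TPM in heart, without overlap. Bst2 was at 6.99, 4.68, 3.99 and 4.62 TPM and 9.99, 10.2 and 6.89 TPM, where the highest TA mouse exceeded the lowest heart. Ifi27 was at 22.6, 28.2, 21.6 and 23.9 TPM and 15.5, 17.7 and 13.8 TPM, with every TA above every heart. For 2 members every D+Q heart lay above every D+Q TA (Ifit2 and Rsad2), against 19.9% of the genes tested.

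These counts rested on single mice. Without TA D+Q replicate 1, 12 members (Irf7, Herc6, Ifit2, Ifit3, Oasl2, Mx2, Gbp3, Rsad2, Bst2, Ifi44, Xaf1 and Parp14) were called lower and 1 higher, against 13.3% and 20.7% of the genes tested, and the median moved to -0.47. Without heart D+Q replicate 3, 0 were called in either direction, against 9.86% of the genes tested called lower and 15.4% higher. Leaving out any other D+Q mouse left 1 lower and 1 higher, against 12.3% to 13.4% and 19.5% to 24.3% of the genes tested. With no covariate 4 were called lower, against 15.9% of the genes tested, and with sex read from expression 0, against 10.6%.

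The difference of the D+Q effect between the tissues was tested directly as an interaction. Of the 34 members, 0 were called and 0 had an unadjusted p under 0.05 in limma, where 11 of 17868 genes (0.0616%) were called, 0.056% higher and 0.0056% lower. The sign was positive, meaning a more positive effect in TA, for 32 members and negative for 2, with a median of 0.29 against -0.01 over all genes. Rsad2 had the smallest p of the members, with an interaction of 0.81 (standard error 0.39, limma adjusted p = 1 over all genes). Without TA D+Q replicate 1 the members split 17 to 17 with a median of -0.01.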

How the data were processed

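The libraries were bulk RNA-seq of TA (8 mice) and heart (7 mice). Per the submitters' processing notes and the study's methods, the authors trimmed reads with Trim Galore 0.6.10, quantified them against GRCm39 with Salmon 1.10.3 and summarised transcripts to genes with tximport. The annotation release is not given in the sources used here. They deposited TPM values, which sum to 1000000 per library, so depth is unknown and the number of mice sets the precision. Replicates are labelled as separate samples of a group and were taken as separate mice. The p-values set a group difference against the spread between these mice, in which limma also draws on the other genes.

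Members were looked up through GENCODE symbols, and 56236 of the 56980 identifiers matched. The members, gene lists and tests were chosen with earlier results of these data known. Fits used limma 3.58.1 in R 4.3.3 on log2(TPM + 0.5) with an expression trend, for genes at 0.5 TPM or more in at least 3 mice of the fit, with Benjamini-Hochberg adjustment over all genes tested. Fold changes on this scale understate the change of low genes. A gene was called at an adjusted p under 0.05 with an absolute log2 difference above 0.5. The TA fit had 1 surrogate variable, estimated from the data in 5 rounds. The heart fit had labelled sex. A fit of all 15 mice with labelled sex compared the tissues within each treatment and tested the difference of the D+Q effect. Of the 35 members, 34 passed the filter in TA and in the fit of all mice (all but Oas3) and 33 in heart (all but Oas3 and Mx1). Scripts were tested on simulated data. Tables and figures were made in Python 3.11.15.

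Mouse-by-mouse TPM was given for members with an unadjusted p under 0.05 in TA or heart, the 5 members with the greatest difference between vehicle tissues and at least 1 member of every role. Other genes were named from the gene lists only. Alternatives covered the pseudocount, the filter, scaling, the trend, the covariates, a replicate block, males only in TA, an atrial score in heart and each mouse left out. Promoter windows were those of RefSeq on GRCm38.p6. Protein sequences were not used here.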

Additional observations from a re-analysis of the deposited data

Results flagged for a closer look

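In groups of 4 mice, the gap between the highest or lowest mouse and its nearest neighbour was compared with the range of the group, on the log2(TPM + 0.5) scale, for each of the 35 members, which made 105 tests in 3 groups. Chance flags about 1 in 20 such groups, and 5 were flagged. In D+Q TA there were 4 of 35, all with replicate 1 as the highest mouse: Ifit3 at 8.03 TPM, Mx2 at 5.53 TPM, Gbp3 at 3.28 TPM and Rtp4 at 19.7 TPM. In vehicle heart there was 1, Ifitm3, where replicate 2 was the highest at 158.0 TPM. In vehicle TA there were 0. The D+Q hearts, with 3 mice, were not tested. On the TPM scale itself the same limit was passed by 13 members in D+Q TA (Ifih1, Irf1, Isg15, Herc6, Ifit1, Ifit2, Ifit3, Oasl2, Mx2, Gbp3, Gbp7, Rtp4 and Xaf1), 1 in vehicle TA (Ifit3b) and 1 in vehicle heart (Ifitm3).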

How the results depend on the processing

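No member was called between D+Q and vehicle, in TA or heart, under any alternative, and the number of genes called in TA ran from 0 to 2 with 1 mouse left out. In heart, 51 genes were called, against 0 with no filter on low values, 13 with no trend, 25 with sex read from expression, 0 with an atrial score in place of sex, and 0 (without vehicle replicate 2) to 136 (without vehicle replicate 3) with 1 mouse left out. Between the tissues in vehicle mice, 6 members were called lower in TA, against 10 with median-of-ratios scaling and 3 to 8 with 1 mouse left out, and 0 to 1 were then called higher. Of all genes tested, 14.2%, 18.5% and 12.5% to 15.4% were called lower in that order, and 19.7% to 26.7% higher with 1 mouse left out. In D+Q mice, 2 were called lower, against 1 with no filter, 4 with median-of-ratios scaling, 4 with no covariate, 0 with sex read from expression, and 0 to 12 with 1 mouse left out, and 0 to 1 were then called higher. Of all genes tested, 13.3%, 6.91%, 18.3%, 15.9%, 10.6% and 9.86% to 13.4% were called lower in that order. With 1 mouse left out, 15.4% to 24.3% of them were called higher. For the difference of the D+Q effect between tissues, 11 genes were called, against 6 with no filter and 5 to 14 with 1 mouse left out. With 1 mouse left out, the median log2 difference over the members ran from -0.20 to 0.20 in TA, -0.14 to 0.05 in heart, -0.47 to -0.26 between vehicle tissues, -0.47 to 0.17 between D+Q tissues and -0.01 to 0.53 for the difference of the effects. The cause of these shifts was not tested, and the fits with 1 mouse left out also held fewer mice. TPM keep no depth, so members under 1 TPM may rest on few reads.

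Same-numbered mice did not deviate together: the correlation of their deviations averaged -0.12 in TA (4 pairs, -0.30 to 0.04) and 0.00 in heart (3 pairs). So few pairs cannot exclude that the numbers pair the mice. With the replicate number as a replicate block, 0 members were called in TA (median 0.15, 30 positive and 4 negative) and 0 in heart, 4 genes in all were called in heart, 7 members were called lower in TA between vehicle tissues and 4 between D+Q tissues, and 5 genes were called for the difference of the effects. Of all genes tested, 13.9% were called lower in TA between vehicle tissues and 15.2% between D+Q tissues.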
